A study of Mus musculus with 37 samples.

Results

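Nphs1, Kirrel2, Clca3a1, Il33, Egfl6, Tmem255a, Sulf1, Dpp4, Csdc2 and B3gnt7 are 10 of the 25239 genes in a table of raw read counts from mouse embryonic hearts. They were chosen by 2 measurements of these libraries: a higher level in hearts with 1 inactive Isl1 allele than in hearts with both alleles, and a level that varied with that of Wt1 between libraries. Both are therefore given below as a description, without a test. All 10 genes passed the filter on low counts, as did 15046 genes in all.

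Hearts were taken from embryos at stage E10.5 for bulk paired-end RNA sequencing, and 37 libraries represent 4 genotypes. The wild-type group (Nipbl +/+; Isl1 +/+) has 10 libraries, and the Isl1 heterozygous (Isl1 +/-), Nipbl heterozygous (Nipbl +/-) and double heterozygous (Nipbl +/-; Isl1 +/-) groups have 9 each. Fathers carried Stra8-iCre and 1 Nipbl Flox allele, and their sperm transmitted Nipbl either as Flox, treated by the design as wild-type, or as FIN, a null allele. Mothers were Isl1 Cre/+, with Cre placed in 1 Isl1 allele so that they are haploinsufficient for the gene. Every Isl1 heterozygous and double heterozygous embryo therefore also carries Cre, and an effect of Cre and an effect of Isl1 loss cannot be told apart in these groups. All 4 genotypes come from the same type of cross. The paternal Nipbl allele is FIN in the Nipbl heterozygous and double heterozygous groups. In the wild-type and Isl1 heterozygous groups it is not FIN, and Flox counts as wild-type there. Whether Cre acts on a Flox allele in the embryos was not tested.

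Isl1 encodes a LIM homeodomain transcription factor of the progenitor cells that add the outflow tract, right ventricle and parts of the atria to the heart tube. Nipbl encodes the factor that loads cohesin onto chromatin, and in people loss of 1 allele causes Cornelia de Lange syndrome, in which heart defects are frequent. Wt1 encodes a zinc finger transcription factor found in the heart mainly in the epicardium, the mesothelial layer that covers it, and in the kidney in podocytes, where it is known to act on the nephrin gene.

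The label under which the genes were grouped, nephrin-like and surface genes, describes only some of them. Nphs1 (nephrin) and Kirrel2 (also called Neph3 or filtrin) are immunoglobulin-type adhesion proteins of the kidney slit diaphragm, the junction between podocyte foot processes. Dpp4 is a peptidase and Tmem255a a membrane protein, Clca3a1 belongs to the chloride channel accessory family of secreted or surface-bound proteins, and Sulf1 removes 6-O sulfates from heparan sulfate outside the cell. Egfl6 is a secreted ligand of the basement membrane that is bound by integrins. Il33 is a cytokine stored in the nucleus, B3gnt7 is a Golgi enzyme that extends sugar chains, and Csdc2 is a cold-shock domain protein that binds RNA. The genes are therefore called here the list or its members.

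Promoter sequences of RefSeq (GRCm38.p6) were matched by symbol for 8 of the 10 genes, in 9 entries because Il33 has 2 start sites. Sulf1 and Csdc2 were not matched. The 250 bases before the start are printed for Dpp4, Clca3a1, Il33 and Tmem255a, whose windows hold no exon of the gene itself, 5′ to 3′ on the strand of the gene. They are shown so that the letters of different members can be compared. Capitals mark matches to motif letters searched on both strands: GGAATG, bound by TEAD factors (CATTCC when read on the other strand), AGATAA, bound by GATA factors, and GGTGTG, a T-box site (CACACC on the other strand). The Dpp4 window is chr2:62412232-62412481 on the minus strand, that of Clca3a1 chr3:144760978-144761227 on the minus strand, that of Tmem255a chrX:38252482-38252731 on the minus strand, and those of Il33 chr19:29924863-29925112 and chr19:29945540-29945789 on the plus strand.
Dpp4: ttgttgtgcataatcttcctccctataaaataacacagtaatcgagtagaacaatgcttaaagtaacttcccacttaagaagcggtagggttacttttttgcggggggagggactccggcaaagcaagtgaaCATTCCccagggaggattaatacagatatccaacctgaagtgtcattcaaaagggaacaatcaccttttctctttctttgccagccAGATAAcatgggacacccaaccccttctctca
Clca3a1: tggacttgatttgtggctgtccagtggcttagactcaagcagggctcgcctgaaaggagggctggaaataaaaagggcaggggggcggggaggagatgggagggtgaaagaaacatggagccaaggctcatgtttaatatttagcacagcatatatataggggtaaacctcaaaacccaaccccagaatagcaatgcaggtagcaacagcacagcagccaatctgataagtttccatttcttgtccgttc
Il33, first start: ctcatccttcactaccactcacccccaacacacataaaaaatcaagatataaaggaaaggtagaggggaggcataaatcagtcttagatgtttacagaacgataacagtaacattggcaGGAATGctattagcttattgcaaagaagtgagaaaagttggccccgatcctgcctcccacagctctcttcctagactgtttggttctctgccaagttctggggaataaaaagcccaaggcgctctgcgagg
Il33, second start: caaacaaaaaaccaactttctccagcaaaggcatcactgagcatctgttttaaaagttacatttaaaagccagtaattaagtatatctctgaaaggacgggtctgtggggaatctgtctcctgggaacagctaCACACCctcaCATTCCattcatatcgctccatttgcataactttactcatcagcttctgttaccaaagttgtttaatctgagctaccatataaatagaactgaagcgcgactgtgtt
Tmem255a: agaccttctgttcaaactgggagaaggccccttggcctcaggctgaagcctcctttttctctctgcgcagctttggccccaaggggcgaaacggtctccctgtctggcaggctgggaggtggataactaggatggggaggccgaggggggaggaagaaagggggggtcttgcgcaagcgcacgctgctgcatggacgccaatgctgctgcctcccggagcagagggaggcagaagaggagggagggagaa
No motif was shared by all of these windows. The TEAD letters stood in 3 of the 9 entries (Dpp4 and both Il33 starts) against 12.6% of the 32851 promoter windows of the same length, and no match of one motif overlapped a match of another. The GATA letters stood in 3 entries (Dpp4, Nphs1 and B3gnt7; 9.99% of all windows), and the T-box letters in 3 (the second Il33 start, B3gnt7 and Egfl6; 16.3%). Neither GCGTGGG, a WT1 zinc finger site (4.3% of all windows), nor CTAATG, an ISL1 homeodomain site (6.36%), occurred in any of the 9 entries. The Clca3a1 and Tmem255a windows held none of the 5 motifs.

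The libraries held 23.4 to 51.0 mega-counts (median 36.2), and values below are CPM, counts per mega-count of library size after TMM scaling. The description label gives each library a set number after the letters IVF, whose meaning is not spelled out. Set 1 holds 3 wild-type and 3 Isl1 heterozygous libraries only, and set 7 a single double heterozygous library (replicate 2). The term for set 7 absorbs that library, and tests of its genotype rest on 8 libraries. Nipbl was lower with Nipbl loss (log2 change −0.80, SE 0.09, adjusted p 4.35e-07, edgeR), but the library labelled Nipbl heterozygous replicate 2, at 72.4 CPM, went against its label. Isl1 had a log2 change of −0.33 with Isl1 loss (SE 0.13, adjusted p 0.321, edgeR). Its median was 6.82 CPM in wild-type and 5.80 CPM in Isl1 heterozygous hearts, with overlapping ranges. The median was 12.5 CPM in Nipbl heterozygous and 8.47 CPM in double heterozygous hearts, so the latter was above that of wild-type, and Isl1 rose with Nipbl loss (0.65, SE 0.15, adjusted p 0.00655, edgeR). Cardiomyocyte markers were abundant in all libraries (summed ventricular list 9725 to 16923 CPM). The labels do not say that each library is 1 embryo, so p-values measure only the spread between these libraries.

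All 10 genes were higher with Isl1 loss and passed an adjusted p of 0.05 in the comparison that chose them, that of all libraries with Isl1 loss against all those without it, given the Nipbl genotype and the set. In that comparison 0.173% of the genes tested passed in either direction and 0.146% passed as higher, and nothing is read from the members' count. Log2 changes ran from 0.41 in B3gnt7 to 0.88 in Nphs1, which correspond to 1.33-fold and 1.84-fold. The median was 0.59 against −0.01 over all genes tested. Refits of this comparison use the libraries that chose the genes, which favours values above 0. The log2 change stayed above 0 for every member under each of the 50 alternative settings run for it (49 for Egfl6). The calls did not: 0 of the 10 genes passed without the set term, with the Wt1 level as a covariate, or without set 1, set 2 or set 5. Leaving out 1 library also ended calls: 2 members passed without double heterozygous replicate 5 or 9, and 3 without wild-type replicate 4, Nipbl heterozygous replicate 5 or double heterozygous replicate 4. The log2 changes had a median over the members of 0.48 without the set term, 0.51 with the Wt1 covariate, 0.52 without set 1, 0.66 without set 2 and 0.55 without set 5. In bulk tissue, more cells of the type that makes an RNA and more of that RNA per cell cannot be told apart.

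Nphs1 (chr7:30458315-30487223, plus strand, GRCm38) had the lowest level per exon length of the 10 genes. Its CPM ran from 0.390 to 3.21 in wild-type hearts (median 2.04, n = 10), from 1.34 to 4.60 in Isl1 heterozygous (median 3.24, n = 9), from 0.901 to 3.07 in Nipbl heterozygous (median 2.14, n = 9) and from 1.05 to 4.26 in double heterozygous hearts (median 3.58, n = 9). The groups overlapped, yet 12 of the 18 libraries with Isl1 loss lay above every one of the 19 libraries with both alleles. The 3 lowest libraries of all, at 0.390, 0.416 and 0.901 CPM, were wild-type replicates 2 and 3 and the library labelled Nipbl heterozygous replicate 2. That last library was also the lowest of its group for 7 other members (Kirrel2, Clca3a1, Il33, Egfl6, Sulf1, Dpp4 and Csdc2), and so sets the low end of their Nipbl heterozygous ranges below. Without it all 10 genes still passed the Isl1 contrast. Raw counts for Nphs1 were as low as 12, which limits the precision of those libraries.

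Kirrel2 (chr7:30447534-30457690, minus strand) lies head to head with Nphs1, with 2543 bases between their RefSeq start sites. It held 1.72 to 9.77 CPM in wild-type hearts (median 7.30) and 4.69 to 12.2 CPM in Isl1 heterozygous hearts (median 10.7). Nipbl heterozygous hearts held 4.42 to 9.81 CPM (median 8.21) and double heterozygous hearts 6.16 to 14.7 CPM (median 11.2). The split by Isl1 genotype was the sharpest of the list: 14 of 18 libraries with Isl1 loss lay above the highest library without it. The remaining libraries with Isl1 loss (replicates 2 and 3 of the Isl1 heterozygous group and replicates 1 and 2 of the double heterozygous group) lay between 4.69 and 6.66 CPM, inside the range of the others. The log2 change was 0.69 (SE 0.14) for Kirrel2 and 0.88 (SE 0.18) for Nphs1.

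**Figure D1:**
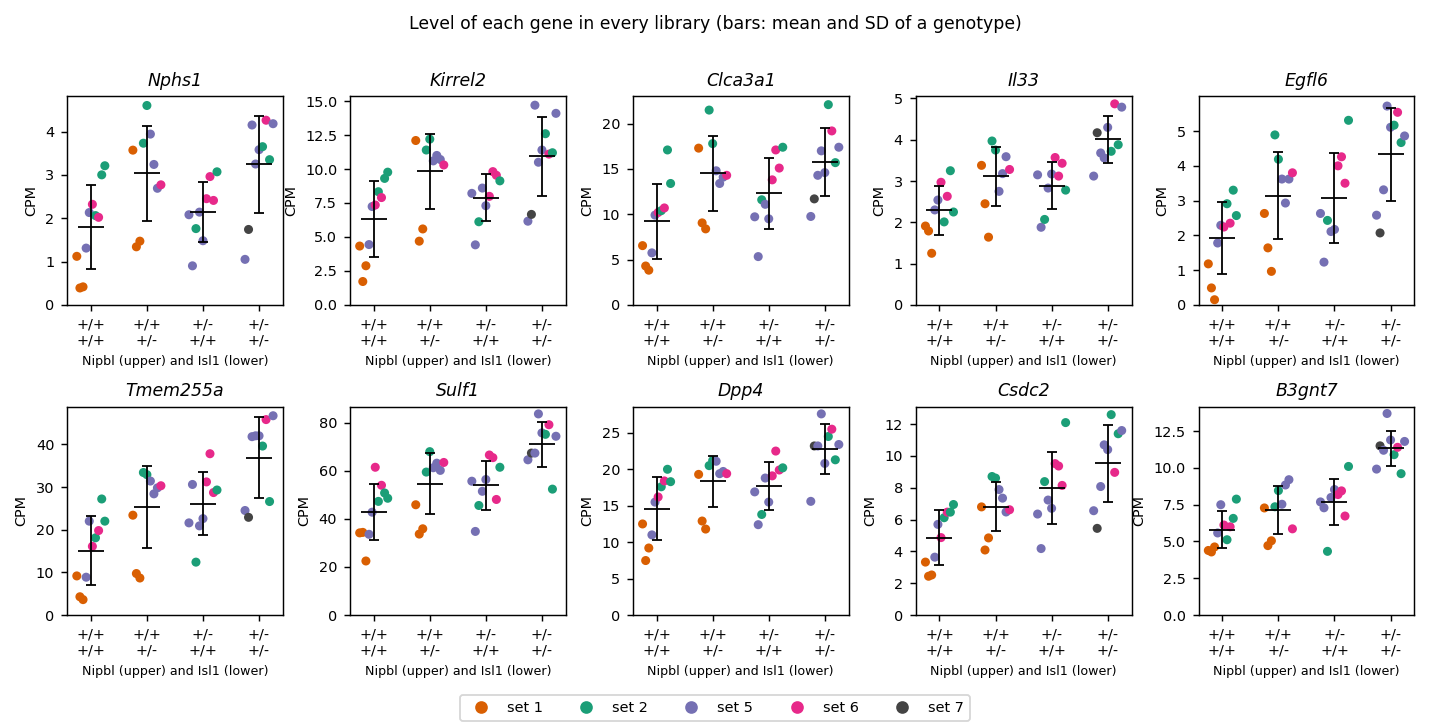
Level of each of the 10 genes in CPM (vertical axis, linear, from 0) in every library, by genotype (upper line Nipbl, lower line Isl1), with points coloured by set and bars for mean and SD (n = 10 wild-type, 9 in each other group). The orange points of set 1 lie at the bottom of most wild-type groups, and B3gnt7 in double heterozygous hearts, from 9.61 CPM upwards, lies above every wild-type point.

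Egfl6 (chrX:166523007-166585720, minus strand) encodes the secreted integrin ligand. Wild-type hearts held 0.148 to 3.30 CPM (median 2.26), Isl1 heterozygous hearts 0.964 to 4.89 CPM (median 3.62), Nipbl heterozygous hearts 1.23 to 5.31 CPM (median 2.63) and double heterozygous hearts 2.07 to 5.72 CPM (median 4.86). The ranges overlapped widely, and 15 of 18 libraries with Isl1 loss were above the median of those without it (2.35 CPM), but only 2 were above all of them. The log2 change was 0.84 (SE 0.17). With 5 counts in wild-type replicate 3, Egfl6 was the only member that a stricter filter of 10 counts in every library removed.

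Sulf1 (chr1:12692277-12861192, plus strand), the heparan sulfate 6-O endosulfatase, was the most abundant of the 10 genes. It ran from 22.5 to 61.5 CPM in wild-type hearts (median 45.0), 33.7 to 68.0 CPM in Isl1 heterozygous (median 60.2), 34.8 to 66.6 CPM in Nipbl heterozygous (median 55.7) and 52.4 to 83.7 CPM in double heterozygous hearts (median 74.4). Both single heterozygous groups lay between the wild-type and the double heterozygous group, and 8 of 18 libraries with Isl1 loss exceeded all others. Its log2 change with Isl1 loss was 0.43 (SE 0.08).

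Clca3a1 (chr3:144729677-144760977, minus strand) reached 3.83 to 17.1 CPM in wild-type (median 10.0), 8.39 to 21.5 CPM in Isl1 heterozygous (median 14.3), 5.33 to 17.4 CPM in Nipbl heterozygous (median 11.6) and 9.76 to 22.1 CPM in double heterozygous hearts (median 15.7). Here 5 of the 18 libraries with Isl1 loss were above, and 5 of the 19 without it were below, the whole range of the other side. The log2 change was 0.68 (SE 0.12). Clca3a1 has a close paralog next to it, Clca3a2 (median 0.925 CPM), and reads of the pair may have been split between them.

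Dpp4 (chr2:62330073-62412231, minus strand), the membrane peptidase that trims peptide hormones and chemokines, held 7.48 to 20 CPM in wild-type (median 15.8) and 11.8 to 21.2 CPM in Isl1 heterozygous hearts (median 19.4). It held 12.4 to 22.5 CPM in Nipbl heterozygous (median 18.8) and 15.6 to 27.6 CPM in double heterozygous hearts (median 23.2). The low end moved up with Isl1 loss more than the high end did in the single heterozygotes, and the log2 change over all libraries was 0.42 (SE 0.08).

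Tmem255a (chrX:38196573-38252439, minus strand), a membrane protein of little studied function, held 3.62 to 27.2 CPM in wild-type (median 17.1), 8.68 to 33.4 CPM in Isl1 heterozygous (median 29.8), 12.4 to 37.8 CPM in Nipbl heterozygous (median 28.7) and 22.9 to 46.7 CPM in double heterozygous hearts (median 41.8). The 6 libraries above all those with both Isl1 alleles were among the 18 with Isl1 loss, and the log2 change was 0.77 (SE 0.15). Zbtb33, which overlaps 10.6% of its exon bases on the other strand, had a median of 18.1 CPM and an Isl1 log2 change of 0.08. Since the strand setting of the counting is not given in the sources used here, reads of the pair cannot be told apart there.

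Il33 (chr19:29925114-29960718, plus strand), a cytokine of the interleukin-1 family that signals through the receptor Il1rl1, held 1.25 to 3.25 CPM in wild-type (median 2.27), 1.64 to 3.97 CPM in Isl1 heterozygous (median 3.28), 1.88 to 3.57 CPM in Nipbl heterozygous (median 3.12) and 3.12 to 4.87 CPM in double heterozygous hearts (median 3.88). Every double heterozygous library was above the wild-type median, and 16 of 18 libraries with Isl1 loss were above the median of the 19 without it. The log2 change was 0.51 (SE 0.09). Il1rl1 was at 0 to 9 counts per library.

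Csdc2 (chr15:81936759-81950941, plus strand), the RNA-binding protein, held 2.44 to 6.95 CPM in wild-type (median 5.29), 4.09 to 8.71 CPM in Isl1 heterozygous (median 6.80), 4.18 to 12.1 CPM in Nipbl heterozygous (median 8.15) and 5.45 to 12.6 CPM in double heterozygous hearts (median 10.4). Here the Nipbl heterozygous group had the higher median of the single heterozygotes, and only 1 library with Isl1 loss was above all those without it. The log2 change with Isl1 loss was 0.51 (SE 0.10).

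B3gnt7 (chr1:86302832-86307305, plus strand), which adds N-acetylglucosamine to growing sugar chains such as keratan sulfate, held 4.29 to 7.88 CPM in wild-type (median 5.79), 4.72 to 9.20 CPM in Isl1 heterozygous (median 7.36), 4.33 to 10.1 CPM in Nipbl heterozygous (median 7.99) and 9.61 to 13.7 CPM in double heterozygous hearts (median 11.4). All 9 double heterozygous libraries were above all 10 wild-type and all 9 Isl1 heterozygous libraries, and overlapped only the highest Nipbl heterozygous one. The log2 change with Isl1 loss, averaged over Nipbl genotype, was 0.41 (SE 0.08).

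Per kilobase of exon in wild-type hearts, the order of mean levels was Sulf1 (3.8 ± 1.04 CPM per kb, SD, n = 10), Tmem255a (3.37 ± 1.81), Clca3a1 (2.36 ± 1.07), Dpp4 (2.31 ± 0.680), Kirrel2 (1.61 ± 0.707), B3gnt7 (1.40 ± 0.303), Csdc2 (1.05 ± 0.375), Il33 (0.793 ± 0.204), Egfl6 (0.712 ± 0.380) and Nphs1 (0.272 ± 0.147). The ranges of every pair of neighbours in this order overlapped. Sulf1, at 1.99 to 5.44 CPM per kb, and Nphs1, at 0.0590 to 0.485 CPM per kb, did not overlap.

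The Isl1 difference was present against both Nipbl backgrounds, with values that rest on the same choice of genes and so are a description. From wild-type to Isl1 heterozygous hearts the log2 changes ran from 0.30 (B3gnt7) to 0.99 (Nphs1), and from Nipbl heterozygous to double heterozygous hearts from 0.39 (Csdc2) to 0.77 (Nphs1). The order differed between backgrounds: Clca3a1 had 0.85 and 0.52, Tmem255a 0.90 and 0.63, and B3gnt7 0.30 and 0.53. In these single comparisons 0.0% of the genes tested passed, members included, in both backgrounds (edgeR, with 886 and 1355 genes at an unadjusted p under 0.05).

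Whether the change with Isl1 loss differed between Nipbl genotypes was tested with the interaction term, which the choice of genes did not use directly. It passed for 0 of the 10 genes and for 0 of 15046 in all (0.0%; edgeR and DESeq2), and 411 genes, no member among them, had an unadjusted p under 0.05 in edgeR. Member interactions ran from −0.32 on the log2 scale (Clca3a1, SE 0.23, 95% interval −0.79 to 0.15) to 0.23 (B3gnt7, SE 0.16, −0.10 to 0.56), with a median of −0.22. That median was 0.02 without set 1 and −0.40 without set 5. The intervals leave room for interactions as large as 0.92 in size for Nphs1 (−0.22, SE 0.34, −0.92 to 0.48), so a difference between backgrounds was not detectable at this spread rather than absent.

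With loss of 1 Nipbl allele 2 of the 10 genes rose, Csdc2 and B3gnt7. The design makes this contrast nearly uncorrelated with the Isl1 contrast (0.0118), but not with the other measurement that chose the list: Wt1 itself rose with Nipbl loss (0.42), so genes that vary with Wt1 lean the same way by choice. Of the genes tested 4.02% passed the Nipbl effect averaged over Isl1 genotype, and 2.67% passed as higher. The members' count is given beside them as a description. Csdc2 rose 1.40-fold (0.49 on the log2 scale, SE 0.10, edgeR adjusted p 0.00402), and 15 of 18 libraries with Nipbl loss were above the median of the 19 without it. B3gnt7 rose 1.30-fold (0.38 on the log2 scale, SE 0.09, edgeR adjusted p 0.0116), with 17 of 18 libraries above that median. The calls rested on several sets: Csdc2 lost its call without set 2 (0.47, adjusted p 0.118), B3gnt7 lost its own without set 5 (0.40, adjusted p 0.169) or set 6 (0.31, adjusted p 0.159), and both lost theirs with the Wt1 level as a covariate (0.37 and 0.08, adjusted p 0.643 and 0.922, edgeR). Within sets 2, 5 and 6 the mean differences were 0.55, 0.37 and 0.55 for Csdc2 and 0.21, 0.37 and 0.65 for B3gnt7. Without the library labelled Nipbl heterozygous replicate 2, they were 0.52 (adjusted p 0.000418, edgeR) for Csdc2 and 0.39 (adjusted p 0.00606, edgeR) for B3gnt7.

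The remaining 8 genes did not pass the Nipbl contrast. Tmem255a (log2 change 0.38, 95% interval 0.03 to 0.73, adjusted p 0.255) and Egfl6 (0.34, −0.03 to 0.71, adjusted p 0.384) had point values close to those of the genes that passed, with wider errors. Sulf1 and Il33 were each at 0.19, Clca3a1 at 0.16 and Dpp4 at 0.14, with adjusted p-values from 0.261 to 0.637 (edgeR). Kirrel2 (0.07, −0.24 to 0.38) and Nphs1 (−0.01, −0.40 to 0.38) lay at 0 within error. Of the 10 values 9 were above 0, against 51.7% of all genes tested, and the members' median was 0.19 against 0.01, a lean that the choice by Wt1 favours. With the Wt1 level as a covariate only Csdc2 and B3gnt7 stayed above 0, the median was −0.19, and Nphs1 (−0.63), Kirrel2 (−0.52), Clca3a1 and Tmem255a (−0.26 each) had the lowest values. None passed in that fit (edgeR).

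**Figure D2:**
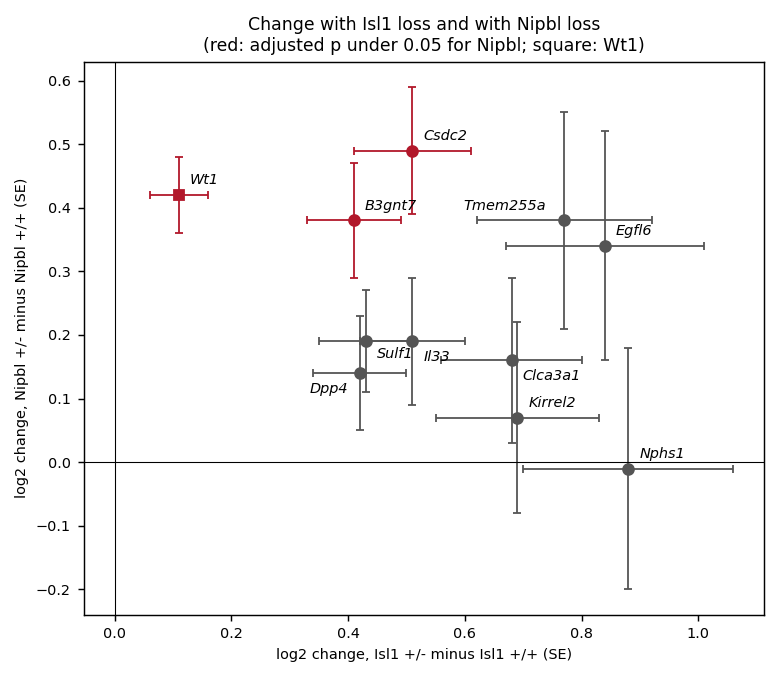
Log2 change with Isl1 loss (horizontal axis) and with Nipbl loss (vertical axis), each averaged over the other genotype, with bars of 1 SE from the edgeR fit of 37 libraries. Csdc2 and B3gnt7, in red, passed the Nipbl contrast at 0.49 and 0.38, while Nphs1, with the highest Isl1 value (0.88), lies at −0.01 for Nipbl; Wt1 (square) has 0.42 for Nipbl and 0.11 for Isl1.

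In the single Nipbl comparisons the 2 genes passed on opposite Isl1 backgrounds. Csdc2 was higher in Nipbl heterozygous than in wild-type hearts (log2 change 0.61, SE 0.14, adjusted p 0.0136, edgeR; 1.71% of all genes passed), and had 0.37 (adjusted p 0.382) between double and Isl1 heterozygous hearts. B3gnt7 was higher in double than in Isl1 heterozygous hearts (0.50, SE 0.13, adjusted p 0.0446, edgeR; 0.957% of all genes passed), and had 0.26 (adjusted p 0.286) between Nipbl heterozygous and wild-type hearts. The interaction terms of both genes did not pass (Csdc2 −0.23, B3gnt7 0.23, adjusted p 0.999 each), so these backgrounds are not shown to differ. In no other member did either comparison pass.

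The set number went with the level of all 10 genes. Each passed the test of the set term, with adjusted p-values from 7.48e-05 (Csdc2) to 0.0201 (B3gnt7, edgeR), but so did 38.2% of all genes tested. Set 1 had the lowest median among sets of more than 1 library for each gene: for Nphs1 the medians were 1.23 CPM in set 1, 3.21 in set 2, 2.41 in set 5 and 2.45 in set 6, and for Tmem255a 8.93, 27.2, 29.1 and 30.3 CPM. Since set 1 holds only wild-type and Isl1 heterozygous libraries, its low values enter only those groups, and the fitted changes include a term for the set.

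The genes were chosen by the set-adjusted Isl1 difference in these same libraries, which favours positive values within sets. The values here are therefore a description. Within sets the Isl1 difference, averaged over the Nipbl genotypes present, was above 0 in all 40 combinations of a gene and a set. Taken apart by Nipbl genotype it was not above 0 for B3gnt7 in set 6 between Isl1 heterozygous and wild-type hearts (−0.05), nor for Csdc2 in set 6 between double and Nipbl heterozygous hearts (0 to 2 decimals). For Nphs1 it was 1.66 in set 1, 0.59 in set 2, 0.91 in set 5 and 0.52 in set 6 on the log2 CPM scale, and for Kirrel2 1.27, 0.52, 0.78 and 0.36. Set 1 gave the highest value for Nphs1, Kirrel2, Clca3a1, Egfl6, Tmem255a, Dpp4 and Csdc2, while set 5 did so for Sulf1 (0.64) and B3gnt7 (0.48) and set 2 for Il33 (0.65). The lowest value of the 40 was 0.12, for Csdc2 in set 6. That set has 1 Isl1 heterozygous and 1 double heterozygous library.

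**Figure D3:**
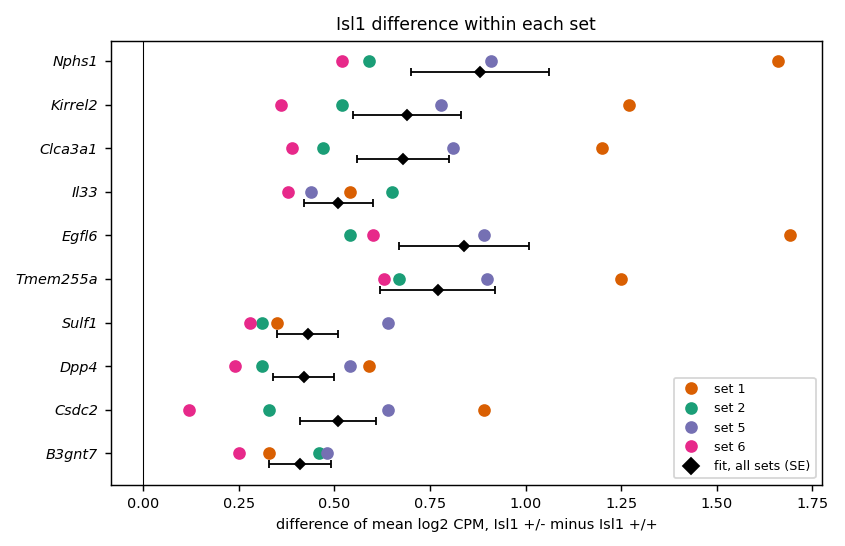
Difference of mean log2 CPM between libraries with and without Isl1 loss, averaged over Nipbl genotypes present, in each set of more than 1 library (coloured points), with the fitted change and its SE in black. All points lie right of 0, which the choice of genes in these libraries favours. Those of set 1 reach 1.66 for Nphs1 and 1.69 for Egfl6, and those of set 6 go down to 0.12 for Csdc2.

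Xist, the RNA that silences 1 X chromosome in females, was used to ask whether the sex of the embryos goes with these levels. Libraries fell into a group at or above 86.2 CPM of Xist and a group at or below 0.365 CPM, and 14 of 18 libraries with Isl1 loss and 12 of 19 without it were in the high group. Neither the X-linked Egfl6 and Tmem255a nor any other member passed a term for the Xist level (adjusted p 0.806 to 0.965, edgeR; 0.0665% of all genes passed).

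Wt1 itself rose with Nipbl loss and was not called with Isl1 loss. It held 38.5 to 55.9 CPM in wild-type (median 47.9), 36.2 to 57.5 CPM in Isl1 heterozygous (median 48.1), 48.5 to 72.1 CPM in Nipbl heterozygous (median 62.5) and 57.7 to 92.6 CPM in double heterozygous hearts (median 75.3). Wild-type and Isl1 heterozygous hearts overlapped almost wholly, and double heterozygous hearts were all above them. With Nipbl loss Wt1 rose by 0.42 on the log2 scale (SE 0.06, edgeR adjusted p 8.28e-06), whereas with Isl1 loss it had 0.11 (SE 0.05, adjusted p 0.376, edgeR).

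Across all 37 libraries every member's log2 CPM correlated positively with that of Wt1, as the choice of genes required. Pearson's r was 0.75 for B3gnt7 (Spearman's rho 0.77), 0.58 for Il33 (0.55), 0.55 for Sulf1 (0.60), 0.54 for Tmem255a (0.52), 0.47 for Dpp4 (0.47) and 0.40 for Csdc2 (0.42). For Kirrel2 and Egfl6 r was 0.35 (rho 0.31 and 0.33), for Clca3a1 0.25 (0.22) and for Nphs1 0.23 (0.22). The median of 0.44 compares with 0.03 over all genes, but 30.3% of all genes reached the r of Nphs1. Libraries share genotype, set and depth, and these correlations are descriptions.

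The relation changed with how libraries were grouped. After removing genotype and set from both genes, the members' median r was 0.41, from 0.15 (Csdc2) to 0.51 (Il33). Without that removal, the median of 0.44 became 0.39 when the 2 libraries farthest from the Wt1 median were left out. These were Isl1 heterozygous replicate 3 and double heterozygous replicate 3. Within sets of more than 5 libraries the median was 0.33 in set 1 (n = 6), 0.46 in set 2 (n = 9), 0.47 in set 5 (n = 14) and 0.75 in set 6 (n = 7). Within genotypes it was 0.59 in Isl1 heterozygous libraries but 0.02 in wild-type, 0 in Nipbl heterozygous and −0.20 in double heterozygous libraries. In the Isl1 heterozygous group the median of the rank correlations was 0.12, far under that of r. Rank medians were 0.10 in wild-type, −0.31 in Nipbl heterozygous and −0.28 in double heterozygous libraries. In sets 1, 2, 5 and 6 they were 0.11, 0.37, 0.47 and 0.71. B3gnt7 had a positive r in each genotype (0.17 in wild-type, 0.66 in Isl1 heterozygous, 0.51 in Nipbl heterozygous and 0.29 in double heterozygous libraries). Its rho was 0.31, 0.58, 0.02 and 0.15 in the same order. Tmem255a was the only other member with r above 0 in all 4 genotypes, at 0.04 in wild-type and 0.02 in double heterozygous libraries. Its rho was 0.14 in wild-type, 0 in Isl1 heterozygous, −0.30 in Nipbl heterozygous and −0.15 in double heterozygous libraries. Csdc2, by contrast, had an r of −0.50 in Nipbl heterozygous and −0.61 in double heterozygous libraries.

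**Figure D4:**
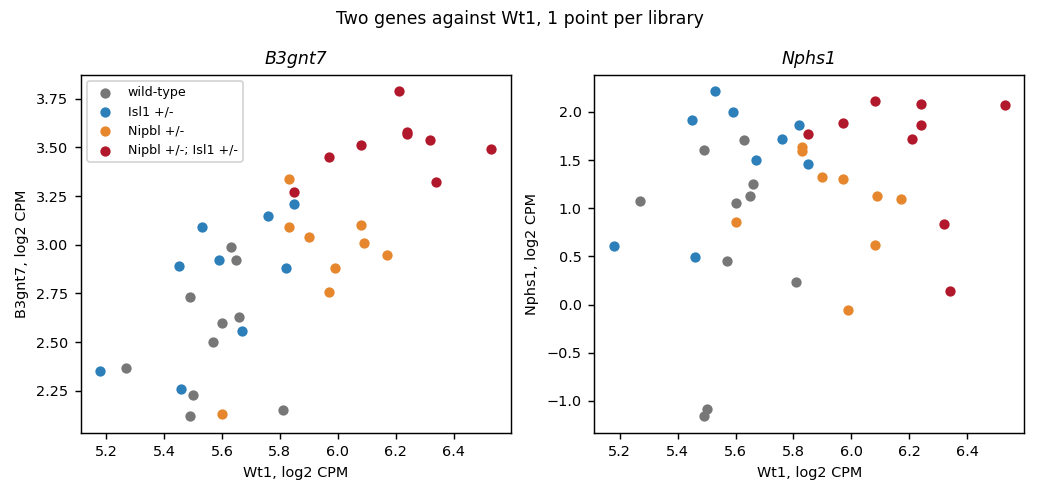
Log2 CPM of B3gnt7 (left) and Nphs1 (right) against log2 CPM of Wt1, 1 point per library, coloured by genotype. B3gnt7 and Wt1 are highest together in the double heterozygous libraries (r = 0.75 over 37 libraries), while Nphs1 has an r of 0.23 and its double heterozygous points run from 1.05 to 4.26 CPM at high Wt1.

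The members followed each other more closely than they followed Wt1. Over residuals after genotype and set, the 45 pairs had a median r of 0.65, from 0.41 (Egfl6 with B3gnt7) to 0.91 (Nphs1 with Kirrel2), and the median over all pairs of genes tested was 0. The members were chosen to vary with Wt1, which by itself favours positive values among them, so these are descriptions. Kirrel2 with Dpp4 and Clca3a1 with Dpp4 each had 0.89, and Nphs1 with Clca3a1 had 0.87. Clca3a1 had the highest mean r with the other members (0.77), followed by Dpp4 (0.74) and Nphs1 (0.73). Il33, Sulf1 and B3gnt7 had the lowest, at 0.56 each. A core of Nphs1, Kirrel2, Clca3a1, Dpp4 and Csdc2 thus had pair values of 0.77 and above, chosen here after the values were seen and given as a description.

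**Figure D5:**
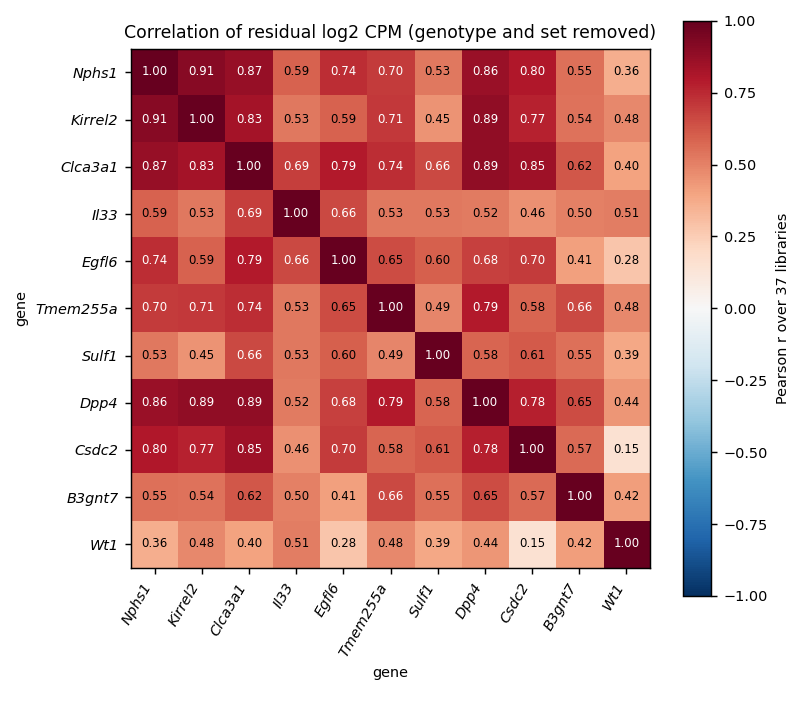
Pearson r between each pair of the 10 genes and Wt1 over 37 libraries, from log2 CPM after genotype and set were removed (colour and number). Nphs1, Kirrel2, Clca3a1, Dpp4 and Csdc2 have values of 0.77 to 0.91 with each other, and the row of Wt1 is paler (0.15 to 0.51).

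The genes outside the list that followed it most closely, by mean residual r with the 10 genes over 37 libraries, were B3gnt9 (0.77), Upk3b (0.75), Zbtb7c (0.74), Fbln2 (0.73) and Tmem151a (0.73). The median of the 12070 genes ranked was −0.02, and Wt1, at 0.39, ranked 257. B3gnt9 is a relative of B3gnt7, Upk3b a uroplakin and marker of mesothelium, and Fbln2 an extracellular matrix protein. B3gnt9 rose with Nipbl loss (log2 change 0.40, SE 0.11, adjusted p 0.0323, edgeR), as did Tmem151a (0.46, SE 0.10, adjusted p 0.00554) and Upk3b (0.31, SE 0.09, adjusted p 0.0419). Zbtb7c (0.35, adjusted p 0.0745) and Fbln2 (0.24, adjusted p 0.121) did not pass. With Isl1 loss Tmem151a (0.46, adjusted p 0.0259), Upk3b (0.40, adjusted p 0.026) and Fbln2 (0.37, adjusted p 0.0308) were higher by edgeR, while B3gnt9 (0.44, adjusted p 0.0546) and Zbtb7c (0.41, adjusted p 0.0801) did not pass. No gene at all passed the Isl1 contrast without the set term, with the Wt1 covariate or without set 1, 2 or 5, so these 3 calls too are lost there.

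Markers of the epicardium and mesothelium moved with the list. Their mean had a residual r of 0.71 with the mean of the 10 genes. Wt1 is 1 of these markers and was used to choose the list, so the choice fixes part of this value. Their summed level had a median of 588 CPM in wild-type (435 to 667), 647 CPM in Isl1 heterozygous (460 to 744), 727 CPM in Nipbl heterozygous (579 to 1028) and 853 CPM in double heterozygous hearts (777 to 1253). Of the 14 markers, all expressed, 4 rose with Nipbl loss (Wt1 0.42, Upk1b 0.37, Lrrn4 0.34 and Upk3b 0.31, edgeR, adjusted p from 8.28e-06 to 0.0419) and 1 with Isl1 loss (Upk3b 0.40, adjusted p 0.026), against 4.02% and 0.173% of all genes tested. With Isl1 loss 10 of the 14 had an unadjusted p under 0.05, against 12.2% of all genes, and DESeq2 called 4. Their median log2 change was 0.26 with Isl1 loss, less than the 0.59 of the list, and 0.28 with Nipbl loss, more than the 0.19 of the list. Aldh1a2, the retinoic acid synthesis enzyme, had 0.45 with Isl1 loss (adjusted p 0.0894) and −0.02 with Nipbl loss, and Sema3d had 0.45 (adjusted p 0.0784) and 0.28. The part of these markers in the result was not tested. Second heart field markers, Isl1 among them, had a residual r of −0.50 with the list and summed to medians of 103 to 113 CPM in the 4 genotypes. Of these 7 markers 0 passed with Isl1 loss by edgeR (4 at an unadjusted p under 0.05) and 2 by DESeq2, the growth factor genes Fgf10 (−0.77 in the edgeR fit, adjusted p 0.0701) and Fgf8 (−0.55, adjusted p 0.151). Erythroid markers had a median log2 change of 1.08 with Isl1 loss (0 of 5 passed by edgeR or DESeq2, 5 at an unadjusted p under 0.05). Their residual r with the list was 0.16. Markers of podocytes and mesonephros had a residual r of 0.48, of cushion mesenchyme 0.41 and of endocardium and endothelium 0.28. The remaining marker lists lay between −0.09 (neuron and neural crest) and 0.12 (atrial cardiomyocyte).

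Regulators of kidney development were near 0 in these hearts: Pax2, Lhx1 and Emx2 stayed at or below 0.457, 0.515 and 0.302 CPM. Of 13 expressed nephrin family and slit diaphragm genes outside the list, 1 was higher with Isl1 loss (Synpo, an actin-binding protein, 0.31, adjusted p 0.0486, edgeR) and 1 rose with Nipbl loss (Trpc6, a calcium channel, 0.48, adjusted p 0.0101, edgeR), beside 0.146% of all genes tested called higher with Isl1 loss and 2.67% with Nipbl loss. Kirrel, the ubiquitous relative of Kirrel2, was at 54.7 to 131 CPM and had 0.22 with Isl1 loss (adjusted p 0.318), and Kirrel3 had 0.21 (adjusted p 0.772) at a median of 0.362 CPM. The median over these 13 genes was 0.07 with Isl1 loss and 0.03 with Nipbl loss.

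Genes that act with the other members are read beside the 0.173% (Isl1) and 4.02% (Nipbl) of all genes tested that passed, and a count of 0 with Isl1 loss is no result about lists this short. In the IL-33 pathway 0 of 7 expressed genes outside the list passed in either contrast (edgeR and DESeq2, and 0 at an unadjusted p under 0.05). Of the matrix partners of Egfl6, its relative Npnt (nephronectin) fell by 0.33 on the log2 scale with Nipbl loss (adjusted p 0.0005, edgeR), as did the basement membrane gene Frem1 (fell by 0.45, adjusted p 0.000654), and 0 of 6 passed with Isl1 loss in either tool or at an unadjusted p under 0.05. Among 9 genes of heparan sulfate synthesis and editing, Hs6st2, which adds the 6-O sulfates that Sulf1 removes, fell by 0.25 with Nipbl loss (adjusted p 0.00195, edgeR). Sulf2, the paralog of Sulf1, was more abundant (126 to 275 CPM) and had 0.01 with Isl1 loss and −0.25 with Nipbl loss (adjusted p 0.0503).

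The families of Dpp4, Csdc2, B3gnt7 and Clca3a1 are read beside the same shares of all genes. None of 5 expressed relatives of Dpp4 passed either contrast by edgeR or DESeq2, with 1 and 2 of them at an unadjusted p under 0.05 for Isl1 and Nipbl, and Fap was at 0 to 13 counts. Among 7 cold-shock domain genes, Carhsp1, the closest relative of Csdc2, rose by 0.15 with Nipbl loss (adjusted p 0.0211, edgeR) and had −0.01 with Isl1 loss. Of 11 keratan sulfate and B3GNT genes, B3gnt9 rose and Lum and Chst2 fell with Nipbl loss (by 1.05 and 0.43, adjusted p 0.00704 and 0.0431, edgeR). Lum, a keratan sulfate proteoglycan, had 0.63 with Isl1 loss (adjusted p 0.287). Clca3a2 had 0.41 with Isl1 loss (SE 0.16, adjusted p 0.303) and −0.03 with Nipbl loss, and 6 other CLCA genes were not expressed above the filter.

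Of 33 expressed genes within 100 kb of a member, 0 passed the Isl1 contrast by edgeR or DESeq2, 2 had an unadjusted p under 0.05 (against 12.2% of all genes), and their log2 changes ran from −0.25 to 0.41 with a median of −0.04. The highest was Clca3a2. With 0.173% of all genes past the Isl1 contrast, the count of 0 is no result about these neighbours. In the Nipbl contrast, which 4.02% of all genes passed, 2 of the 33 passed, both near the nephrin pair: Aplp1 (0.36, adjusted p 0.0265, edgeR), an amyloid precursor-like protein, and Tyrobp (1.01, adjusted p 0.0204, edgeR), an adaptor of macrophages. Nphs1 and Kirrel2 neighbour each other and, as members, are not among the 33.

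Overlapping antisense genes were low where they could be read. Nphs1os, which overlaps 9.0% of the exon bases of Nphs1, had a median of 0.0496 CPM, and Gm28626, which overlaps 12.6% of B3gnt7, had 0.0303 CPM.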

How the data were processed

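Bulk RNA was measured in 37 libraries of mouse hearts. The RNA kit was NEB Monarch and the library kit NEBNext Ultra II RNA, per the labels' protocols, which do not say whether strand was kept. The authors deposited raw counts, 1 row per gene symbol, as whole numbers that were not normalized. STAR, featureCounts and the builds GRCm38 and mm10 are named per the submitters' processing notes, without versions. The annotation, strand setting and filters are not given in the sources used here. Gene positions and exon lengths are from GENCODE M21 (GRCm38), and promoters from RefSeq (GRCm38.p6).

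Genes with low counts were removed (filterByExpr, minimum count 10, minimum total 15), which left 15046 of 25239, of which 4273 were 0 in every library. After TMM scaling, the edgeR 4.0.16 quasi-likelihood method (with limma 3.58.1 under R 4.3.3) was fitted to all 37 libraries with terms for genotype and set, which left 29 residual degrees of freedom. The Isl1 and Nipbl effects were averaged over the other genotype. All tests are two-sided. The Benjamini-Hochberg adjustment runs over all genes tested, with a threshold of 0.05. Standard errors came from the F statistic, and log2 CPM used a prior count of 2. The unit of CPM is computed here from the deposited counts. No 2 libraries of a genotype were alike within sampling noise (smallest chi-square per degree of freedom 7.46 in 153 pairs). The model was also run on simulated counts. These held no set differences and changes with Nipbl loss only. They therefore do not test the set term or the detection of Isl1 changes.

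The members and all gene lists were chosen with earlier results of these data known. Genes named outside the members were Wt1, Nipbl, Isl1, list genes that passed or that a count turns on, and the 5 most alike genes by residual correlation. One list gene is not reported here. Further genes (Fap, Aplp1, Tyrobp and the overlapping genes) were named after their values were seen. Alternatives were no set term, the replicate number as a block, DESeq2 1.42.0, DESeq2-style size factors, other filters, 2 surrogate variables (sva 3.50.0), Xist or Wt1 as a covariate, and leaving out each set and each library. The correlations within genotypes and those without Nipbl heterozygous replicate 2 were chosen after seeing the data. Python 3.11.15, pandas 2.3.3, numpy 2.4.6, scipy 1.17.1 and matplotlib 3.10.9 were used. Depth was 23.4 to 51.0 mega-counts per library.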

Additional observations from a re-analysis of the deposited data

How the results depend on the processing

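For Isl1 the alternatives refit the comparison that chose the members, on the same libraries or most of them. Values close to those reported are therefore favoured. All 499 Isl1 values of members under alternatives stayed above 0, and 488 were within 1 SE of the value reported. Of the 499, 120 did not pass the threshold, in 19 of the alternatives. Of 499 Nipbl values, 464 kept their direction and their side of the threshold, 5 lost and 9 gained a call, and 21 changed sign. The cause was not tested for any of them, except that leaving out a set or a library removes samples.

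The Isl1 contrast called 26 genes and 10 of the members. It gave 0 genes and 0 members without the set term, with the Wt1 covariate and without set 1, 2 or 5, and 7 genes and 3 members without set 6. DESeq2 called 113 genes and the 2 surrogate variables 220, with 10 members each. Leaving out 1 library gave 4 to 73 genes and 2 to 10 members. The members fell to 2 without double heterozygous replicate 5 or 9, to 3 without wild-type replicate 4, Nipbl heterozygous replicate 5 or double heterozygous replicate 4, to 4 without wild-type replicate 3 and to 5 without double heterozygous replicate 7. The highest gene count, 73, came without wild-type replicate 7. Counts of 56 genes without Nipbl heterozygous replicate 2, 48 without double heterozygous replicate 1, 44 without Isl1 heterozygous replicate 3 and 41 without Nipbl heterozygous replicate 9 were also above 1.5 times the main one. Counts of 5 to 15 were under it by as much without wild-type replicates 2, 3 and 4, Isl1 heterozygous replicates 5, 6 and 7, Nipbl heterozygous replicates 3, 4 and 5 or double heterozygous replicates 4 and 7.

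The Nipbl contrast called 605 genes and 2 members. It gave 1045 genes and 5 members without the set term, 2130 genes with 2 surrogate variables, 25 genes and 0 members with the Wt1 covariate, and 152, 275 and 401 genes without sets 2, 5 and 6, with 1 member each. Leaving out 1 library gave 436 to 1044 genes, the highest without Nipbl heterozygous replicate 2, and 2 members each time. Its changes of sign lay near 0 or came with the Wt1 covariate, the block or no set term. With that covariate the values were −0.63 for Nphs1, −0.52 for Kirrel2, −0.26 for Clca3a1 and Tmem255a, −0.21 for Il33, −0.18 for Dpp4, −0.08 for Egfl6 and −0.07 for Sulf1. Nphs1, at −0.01, had 0.17 without the set term, 0.04 with 2 surrogate variables, 0.10 without set 2 and 0.01 to 0.04 (0.01, 0.02, 0.03 or 0.04) without single libraries, and Kirrel2 had −0.03 without set 5.

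With the replicate number as a block in place of the set, the Isl1 contrast gave 9 genes and 4 members and the Nipbl contrast 993 genes and 7 members, among them Tmem255a (0.85), Egfl6 (0.69), Sulf1 (0.40), Il33 (0.37) and Dpp4 (0.34), and Nphs1 had 0.30. The labels do not say that a number marks shared animals, and same-numbered libraries did not deviate together (median r 0.0279 over 54 pairs, −0.0128 over 459 others), so these numbers do not pair the samples.

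The interaction gave 0 genes in every fit. Its median over members, −0.22, was −0.40 without set 5 and 0.02 without set 1. The members' median r with Wt1, 0.44, was 0.75 within set 6, 0.02 within wild-type, 0 within Nipbl heterozygous and −0.20 within double heterozygous libraries, and 0.47 without Nipbl heterozygous replicate 2. With Isl1 loss DESeq2 called 4 epicardial markers where edgeR called 1, 2 second heart field markers where edgeR called 0, and 1 keratan sulfate gene where edgeR called 0. With Nipbl loss it called 2 heparan sulfate genes where edgeR called 1, and 3 neighbours where edgeR called 2. Depth limits Nphs1, Egfl6 and Il33 most, whose lowest counts were 12, 5 and 40. No molecular identifiers are named, so reads may repeat molecules.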
